A study of Mus musculus with 6 samples.

Results

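The genes described here are 8 enzymes and regulators of hepatic glycolysis and fructose use, followed in mouse liver between a short and a long fast. They were the regulatory protein gene Gckr, the phosphofructokinase subunit Pfkl, the bifunctional enzymes Pfkfb1 and Pfkfb3, the ketohexokinase Khk, the enolase Eno1, the pyruvate kinase Pklr and the lactate dehydrogenase subunit Ldha. They were chosen by name, with earlier results of these data known. All 8 were found among the 55471 gene lines of the count tables. Liver RNA came from male C57BL/6J mice, a common inbred strain, all of genotype WT. Of 6 mice, 3 had been fasted for 4 h and 3 for 16 h, with 1 library per mouse. There was no fed group, so the 4 h fast is the reference. The study as a whole concerned cholesterol movement in the liver.

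The liver takes up glucose after a meal, traps it as glucose 6-phosphate and burns or stores it, and in a fast it makes glucose instead. Most enzymes of glycolysis work in both directions and are common to both routes, but a few steps, among them those of phosphofructokinase and pyruvate kinase, run one way only, and gluconeogenesis goes around them with enzymes of its own. Fructose enters below phosphofructokinase: ketohexokinase makes fructose 1-phosphate, which is split, and triokinase phosphorylates the glyceraldehyde that results. Genes of these steps are known to respond in liver to insulin through SREBP-1c and to sugar through the factor ChREBP, which Mlxipl encodes.

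Libraries held between 15173653 and 26572532 counts assigned to genes. Levels are CPM, each gene's counts divided by the library's TMM-scaled total in units of 1e6. Changes are log2 fold changes of 16 h against 4 h ± SE from edgeR's quasi-likelihood test with 3 livers per group, adjusted over all tested genes and called at an adjusted p under 0.05. The hepatocyte transcript Alb had between 52970.00 and 69739 CPM on plain library totals. Replicate 3 of the 4 h fast also held lung transcripts: 8 lung epithelium markers summed to 182 CPM there against 5.67 to 8.84 CPM in the other libraries, and 10 neutrophil markers to 17.0 CPM against 2.52 to 5.59 CPM. Because these are whole livers, fewer cells of a type and less RNA per cell cannot be told apart.

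The genes split evenly. Pklr, Khk and Gckr fell and Ldha rose after 16 h, while Pfkl, Pfkfb1, Pfkfb3 and Eno1 were not called. So 4 of 8 were called, where 18.7% of all 13812 tested genes were. In the higher direction it was 1 of 8 against 9.18% and in the lower direction 3 of 8 against 9.51%. In those 4 genes the livers of one fast did not overlap in level with those of the other, which held for 39.4% of all tested genes (19.7% higher and 19.7% lower). The 8 genes and the pathway lists below were chosen with earlier results of these data known. Their counts beside the shares over all tested genes are therefore description and no test of the lists. The median change of the 8 genes was -0.22 and that of all tested genes -0.028. Summed over the 8 genes the level was 2328 ± 178 CPM after 4 h and 2147 ± 185 CPM after 16 h.

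**Figure D1:**
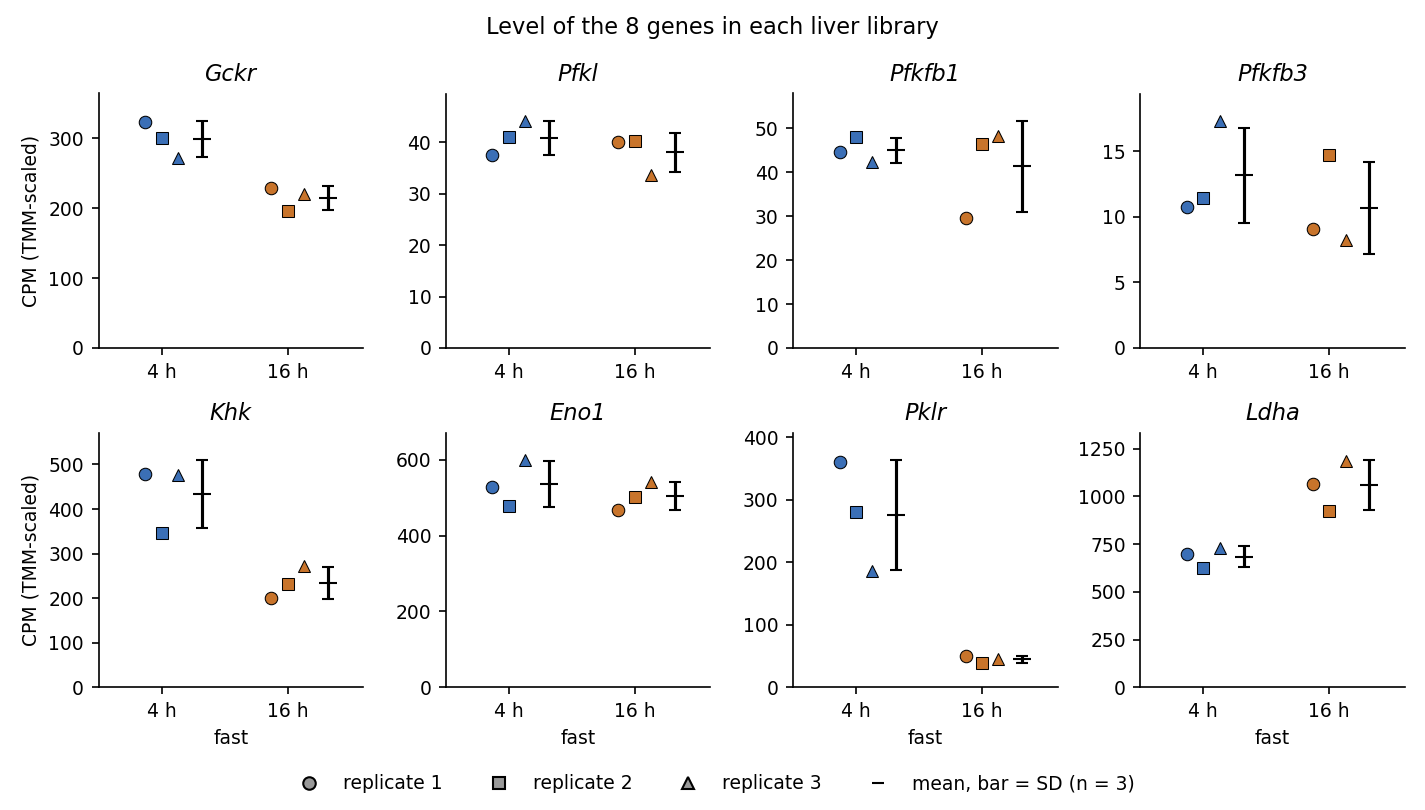
Level of each gene in CPM on TMM-scaled totals (vertical axes from 0) in the 3 livers of the 4 h fast and the 3 of the 16 h fast. Symbols mark replicates and bars show mean ± SD (n = 3). The groups are apart for Gckr, Khk, Pklr and Ldha and overlap for Pfkl, Pfkfb1, Pfkfb3 and Eno1.

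Gckr encodes a regulatory protein of hepatocytes that acts at the entry of glucose into glycolysis and holds that step back when glucose is low. Gckr lies on chromosome 5 at 31297443 to 31327314 of GRCm38. Its level was 324, 301 and 272 CPM in replicates 1, 2 and 3 of the 4 h fast. After 16 h it was 229.8, 196 and 220.2 CPM. All 3 longer-fasted livers lay below the lowest of the 4 h livers. Gckr fell by 0.47 ± 0.11 on the log2 scale (edgeR adjusted p = 0.0151). With 4 h replicate 1 left out the change was -0.39 (edgeR adjusted p = 0.0657), and with 16 h replicate 2 left out -0.41 (edgeR adjusted p = 0.0892). With 16 h replicate 3 left out it was -0.49, no smaller a fall than with all libraries, at an edgeR adjusted p of 0.0587. The call of Gckr did not hold in these runs, each of which had fewer livers in one group.

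Phosphofructokinase takes fructose 6-phosphate to the bisphosphate, the committed step of glycolysis, and Pfkl encodes its liver subunit on chromosome 10 at 77986947 to 78010083. In the 4 h livers Pfkl stood at 37.4, 41.0 and 44.1 CPM, and in the 16 h livers at 40.1, 40.3 and 33.7 CPM. The groups overlapped, with the highest value in 4 h replicate 3 and the lowest in 16 h replicate 3. Its change of -0.10 ± 0.11 was not called (edgeR adjusted p = 0.564), with a 95% interval of -0.35 to 0.15, and ran from -0.14 to -0.018 with single libraries left out, the latter without 16 h replicate 3. The muscle subunit Pfkm stood near it, at 7.31 ± 0.143 and 7.29 ± 0.605 CPM per kilobase against 6.12 ± 0.501 and 5.70 ± 0.566 CPM per kilobase for Pfkl. Which is the more abundant depends on the length used: after 4 h Pfkl was 44.9% of the family over the union of exons and 55.5% over the longest transcript. The platelet subunit Pfkp made up 1.33% ± 0.243 after 4 h and 1.35% ± 0.319 after 16 h (SD, n = 3).

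Fructose 2,6-bisphosphate is a strong activator of liver phosphofructokinase and is made and broken down by the PFKFB enzymes, each of which carries a kinase and a phosphatase. Pfkfb1, the classical liver form, lies on chromosome X at 150588229 to 150643878. It was at 44.6, 48.0 and 42.4 CPM after 4 h. The 16 h livers had 29.5, 46.5 and 48.2 CPM, so that replicate 1 stood low and the others lay among the 4 h values or just above. The change of Pfkfb1 was -0.12 ± 0.17 (95% interval -0.49 to 0.24, edgeR adjusted p = 0.647), and without 16 h replicate 1 it was 0.084 (edgeR adjusted p = 0.696).

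Pfkfb3, the widely expressed form with high kinase activity, lies on chromosome 2 at 11471433 to 11554077. It was the least abundant of the 8 genes, with 10.7, 11.5 and 17.3 CPM after 4 h and 9.08, 14.7 and 8.28 CPM after 16 h. The highest value came from 4 h replicate 3, the library with lung and neutrophil transcripts, and 16 h replicate 2 lay above both other 4 h livers. Its change of -0.31 ± 0.25 was not called (95% interval -0.86 to 0.23, edgeR adjusted p = 0.404), and was -0.059 without 4 h replicate 3. The part of other cells in its level was not tested. Per kilobase, the ratio of Pfkfb1 to Pfkfb3 was 6.76 ± 1.87 after 4 h and 7.68 ± 2.84 after 16 h (exact two-sided permutation p = 0.6, in a design of 3 against 3 that cannot go below 0.1). Its log2 difference of 0.16 turned to -0.092 without 4 h replicate 3 and to -0.12 without 16 h replicate 3.

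Another form of that family was called. Pfkfb2, known from heart, rose from 11.3 ± 2.4 to 22.1 ± 3.0 CPM (0.97 ± 0.16, edgeR adjusted p = 0.00222), and 19.5% of its exon bases lie under other genes. Its share of PFKFB transcript per kilobase was 10.2%, 12.4% and 9.10% in the 4 h livers and 22.8%, 19.1% and 20.3% in the 16 h livers, with no overlap. Pfkfb1 was the most abundant form in each library, at 76.1% ± 2.65 and 68.8% ± 3.70 of the family (SD, n = 3).

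**Figure D2:**
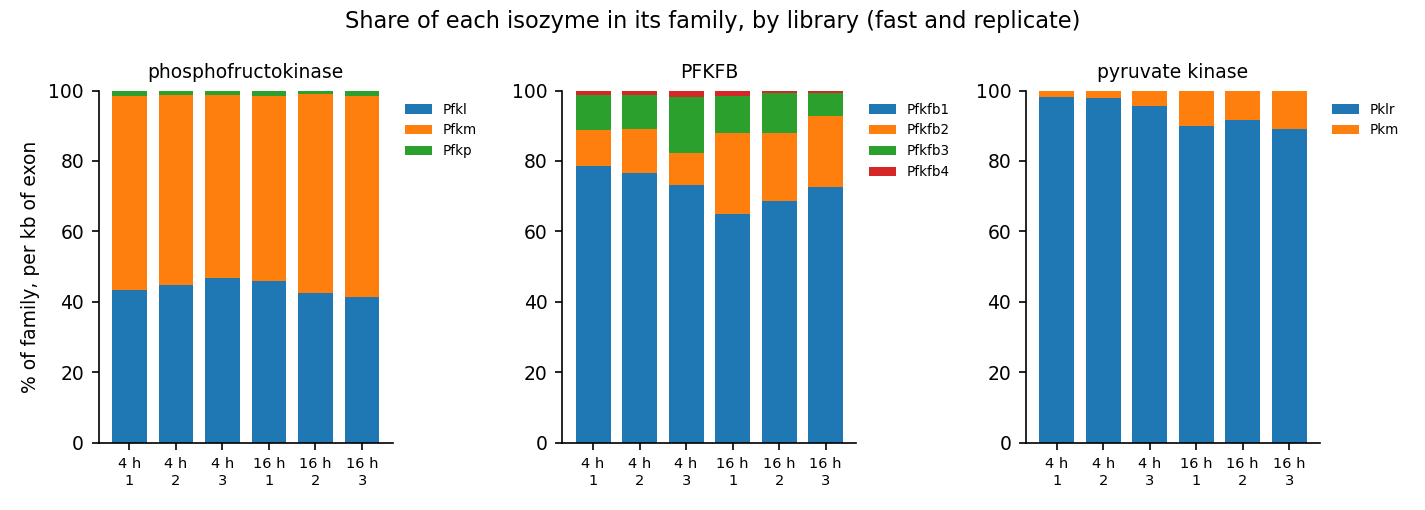
Share of each isozyme in its family in percent, from counts per kilobase of exon, in each of the 6 libraries, for the phosphofructokinase subunits, the PFKFB enzymes and the pyruvate kinases. Pfkfb2 takes 19.1% to 22.8% of its family in the 16 h livers against 9.10% to 12.4% in the 4 h livers, and Pkm takes 8.25% to 11.0% of pyruvate kinase against 1.76% to 4.48%.

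Khk, ketohexokinase, phosphorylates fructose and is strongly expressed in liver. The gene lies on chromosome 5 at 30921431 to 30931248. The window around its RefSeq start at 30921559 on GRCm38.p6 (plus strand) runs from 250 bases before to 50 after the start. It is shown because the gene was called and the window held the letters CACGTG, an E-box. Capitals mark the E-box, which reads the same on both strands. Gckr also fell and its window held no E-box, while Ldha rose and had E-boxes, and Pfkfb3, with an E-box, was not called.
Khk chr5:30921309-30921608: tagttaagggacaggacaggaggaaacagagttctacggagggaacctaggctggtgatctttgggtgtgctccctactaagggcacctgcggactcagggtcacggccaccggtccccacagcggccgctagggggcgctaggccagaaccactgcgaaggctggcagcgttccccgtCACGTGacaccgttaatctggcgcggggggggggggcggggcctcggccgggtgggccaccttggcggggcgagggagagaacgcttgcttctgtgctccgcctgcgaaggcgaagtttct

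The E-box stood at 71 to 66 bases before the start of Khk. Of all 32851 RefSeq windows of this length 7.15% hold one. Khk was at 479, 346 and 476 CPM after 4 h and at 200.01, 232 and 271 CPM after 16 h. Replicate 2 was the lowest of the 4 h livers and still lay above all 16 h livers. Khk fell by 0.89 ± 0.15 on the log2 scale, 1.85-fold (edgeR adjusted p = 0.00248). It was called whichever single library was left out, with changes from -1.01 to -0.78.

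Most other genes that handle fructose and its relatives were lower too. Of 6 on the list of fructose and polyol genes 4 were called lower and none higher. Over all tested genes 9.51% were called lower and 9.18% higher. Changes on the list were below 0 in 5 genes and above 0 in 1, with a median of -0.60 against -0.028 over all tested genes. Slc2a2, the GLUT2 carrier that moves glucose and fructose across the hepatocyte membrane, fell from 322 ± 61.3 to 157 ± 12.0 CPM (-1.04 ± 0.14, edgeR adjusted p = 6.67e-04). Tkfc, the triokinase that acts downstream of Khk, fell from 364 ± 65.5 to 187 ± 6.4 CPM (-0.96 ± 0.13, edgeR adjusted p = 7.30e-04). Of the exon bases of Tkfc, 20.0% lie under opposite-strand genes. The ratio of Khk to Tkfc per kilobase was 3.07 ± 0.245 and 3.21 ± 0.397, a log2 difference of 0.063 (exact permutation p = 0.7) that ran from -0.02 to 0.16 with single libraries left out.

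Both genes of the polyol route from glucose to fructose were among the 4, but less firmly. Sord, sorbitol dehydrogenase and the most abundant of the list, fell from 1344 ± 100.1 to 1032 ± 44.7 CPM (-0.38 ± 0.11, edgeR adjusted p = 0.0325). Its edgeR adjusted p was 0.0525, 0.0618 and 0.0331 without 4 h replicate 1, 2 and 3 and 0.103, 0.0909 and 0.136 without 16 h replicate 1, 2 and 3. Akr1b3, aldose reductase, fell from 6.64 ± 1.3 to 3.72 ± 1.1 CPM (-0.83 ± 0.23, edgeR adjusted p = 0.0289), and was not called without 4 h replicate 1 (0.113) or without 16 h replicate 1 or 2 (0.0850 and 0.109). The list thus had 2 genes called lower without 4 h replicate 1 and without either of 16 h replicates 1 and 2, and without 16 h replicate 1 it had 1 called higher.

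Eno1 encodes the enolase that makes phosphoenolpyruvate, a step that runs both ways, on chromosome 4 at 150236721 to 150248879. Levels were 528, 479 and 599 CPM after 4 h and 468, 503 and 540.5 CPM after 16 h. The groups overlapped, and the highest value was again that of 4 h replicate 3. The change of Eno1 was -0.088 ± 0.12 (95% interval -0.35 to 0.17, edgeR adjusted p = 0.640), and 0.011 without 4 h replicate 3. Of its transcript 50-mers, 25.3% also occur in the near-identical copy Eno1b, which had 7 to 21 counts per library, so reads common to both may be missing and the level of Eno1 is uncertain. Eno3, known from muscle, gave 4.00% ± 0.456 and 4.79% ± 0.649 of enolase transcript per kilobase (SD, n = 3).

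Pklr encodes the pyruvate kinase of liver and red cells, which closes glycolysis by making pyruvate and ATP. Its change was the largest of the 8 genes. The gene lies on chromosome 3 at 89136142 to 89146784 and has RefSeq starts at 89136142 and, downstream, at 89136623, which counts per gene do not separate. The window around the downstream start (GRCm38.p6, plus strand) is shown because it alone among the 16 windows of the 8 genes held the letters CACG and CGTG with 9 bases between them, the spacing of a carbohydrate response element. Capitals mark the whole match, and the pattern reads the same on both strands.
Pklr chr3:89136373-89136672: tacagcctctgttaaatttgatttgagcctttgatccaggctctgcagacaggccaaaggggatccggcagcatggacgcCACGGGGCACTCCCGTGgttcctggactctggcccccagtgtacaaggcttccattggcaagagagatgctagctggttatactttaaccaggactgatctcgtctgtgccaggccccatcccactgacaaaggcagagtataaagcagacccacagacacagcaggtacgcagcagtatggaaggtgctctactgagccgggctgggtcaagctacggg

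The match stood at 170 to 154 bases before the downstream start of Pklr, and 0.280% of all 32851 windows hold one. Pklr was at 361, 281 and 186 CPM in the 4 h livers and at 50.3, 39.5 and 45.0 CPM in the 16 h livers. The 4 h livers were spread 1.94-fold among themselves and the 16 h livers 1.27-fold, and every 4 h liver was above every 16 h liver. Pklr fell by 2.62 ± 0.22 on the log2 scale, 6.13-fold, with a 95% interval of -3.11 to -2.12 (edgeR adjusted p = 7.37e-05). Its log2 fold change ranked 37 from the lowest among all 13812 tested genes. Leaving out single libraries gave -2.82 to -2.36, and -2.82 was the value without 4 h replicate 3, whose Pklr was the lowest of its group.

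Of the exon bases of Pklr, 22.0% lie under Hcn3, an ion channel gene on the opposite strand. Hcn3 went from 50.8 ± 7.6 to 2.30 ± 1.01 CPM (-4.45 ± 0.25, edgeR adjusted p = 7.03e-06). No source used here gives the strand setting of the counting, so reads from the shared stretch cannot be assigned to one gene. Markers of red cells were looked at beside Pklr. The summed level of 7 erythroid markers on plain totals was 144 to 179.5 CPM after 4 h and 55.1 to 97.1 CPM after 16 h. Alas2, a heme synthesis gene of red cell precursors and the most abundant of them, was the one called of 5 tested (-1.09 ± 0.11, edgeR adjusted p = 7.37e-05). The 4 globin genes tested overlapped between the groups and were not called (edgeR adjusted p from 0.0863 to 0.409). The part of red cells in the fall of Pklr was not tested.

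Pkm, the pyruvate kinase gene of most other tissues, was the minor form. Its level went from 10.9 ± 2.3 to 7.54 ± 1.8 CPM, a change that was not called (-0.52 ± 0.20, edgeR adjusted p = 0.0985) and moved to -0.32 with 4 h replicate 3 left out and to -0.34 with 16 h replicate 2 left out. With no filter on low counts Pkm was called (0.0416), and 15.3% of its exon bases lie under another gene. Per kilobase, the ratio of Pklr to Pkm was 55.7, 47.8 and 21.3 after 4 h and 9.06, 11.1 and 8.13 after 16 h. The log2 ratio differed by -2.04 (exact permutation p = 0.1), with every 16 h liver below every 4 h liver. Set against Pck1, which encodes the enzyme that carries carbon the other way, the ratio of Pklr was 0.156, 0.0869 and 0.0598 after 4 h and 0.00908, 0.00612 and 0.00784 after 16 h, a log2 difference of -3.62 (exact permutation p = 0.1).

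Ldha encodes the lactate dehydrogenase subunit that interconverts pyruvate and lactate, and it was the one gene of the 8 that rose. It lies on chromosome 7 at 46841475 to 46855627. The window around its first RefSeq start on GRCm38.p6 (plus strand, start at 46845804) is shown because it held the most motif matches of the 16 windows. Capitals mark both E-boxes (CACGTG) and a further match to ACGTG, the core of a hypoxia response element. That match lies on the opposite strand, so the strand shown reads CACGT there.
Ldha chr7:46845554-46845853: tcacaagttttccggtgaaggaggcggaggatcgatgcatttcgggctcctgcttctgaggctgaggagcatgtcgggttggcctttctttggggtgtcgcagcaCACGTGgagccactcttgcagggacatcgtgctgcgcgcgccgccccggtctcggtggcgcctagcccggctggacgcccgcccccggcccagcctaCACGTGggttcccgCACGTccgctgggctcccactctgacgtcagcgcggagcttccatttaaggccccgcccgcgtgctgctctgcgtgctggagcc

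The E-boxes, each of which also holds ACGTG on both strands, stood at 145 to 140 and 48 to 43 bases before the start of Ldha, and the further match at 34 to 30. ACGTG on either strand occurs in 19.6% of all windows. Besides Khk and Ldha, Pfkfb3 had an E-box. Windows of Gckr, Pfkl, Pfkfb1 and Eno1 held none of the 4 motifs searched, and TCACNCCAC, a sterol regulatory element found in 1.24% of all windows, was in none of the 16. These matches are letters in a window, and no binding was measured.

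Ldha was at 699, 626 and 729 CPM after 4 h and at 1065, 925 and 1187 CPM after 16 h. Each of the 16 h livers lay above each of the 4 h livers. Ldha rose by 0.63 ± 0.12 on the log2 scale, 1.55-fold (95% interval 0.36 to 0.90, edgeR adjusted p = 0.00527), and was called whichever library was left out, with changes from 0.54 to 0.72. Of its 50-mers, 9.26% occur in other genes, so a part of its reads may have gone uncounted. Ldhb, the heart subunit, was at 2.19 ± 0.851 and 1.45 ± 0.420 CPM (-0.58 ± 0.34, edgeR adjusted p = 0.253), and its change moved to -0.23 with 4 h replicate 3 left out and to -0.38 with 16 h replicate 2 left out. Ldha was 99.3% ± 0.210 and 99.7% ± 0.0564 of lactate dehydrogenase transcript per kilobase (SD, n = 3). Ldhc, the testis form, had 0 of 125286659 counts, which allows up to 0.0239 CPM.

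Of 3 listed carriers of lactate and pyruvate across the membrane, 2 were called higher. Slc16a1, which encodes MCT1, rose from 48.8 ± 15.1 to 91.3 ± 7.4 CPM (0.90 ± 0.19, edgeR adjusted p = 0.00928). Slc16a7, which encodes MCT2, rose from 48.3 ± 5.6 to 81.1 ± 4.3 CPM (0.75 ± 0.11, edgeR adjusted p = 0.00119). The third, Slc16a3, which encodes MCT4 and is named after its values were seen, had too few counts to be tested, with 0.331, 0.580 and 0.574 CPM after 4 h and lower values of 0.222, 0.181 and 0.206 CPM in the 16 h livers. On the list of lactate genes 2 of 4 tested were called higher and none lower, with a median of 0.29. Over all tested genes 9.18% were called higher and 9.51% lower. Ldhd, the mitochondrial enzyme for D-lactate and the most abundant of the list, had a change of -0.16 ± 0.10 (edgeR adjusted p = 0.304). An opposite-strand gene covers 42.2% of its exons.

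Most other enzymes of glycolysis were not called, as held for most tested genes, of which 9.18% were called higher and 9.51% lower. On the list of upper glycolysis genes 1 of 10 tested was called higher (Pfkfb2) and 1 lower, with a median of -0.012, and 2 were called higher without 4 h replicate 1 or 3. The gene that fell was Aldoc, known as the brain aldolase, from 19.9 ± 3.5 to 10.9 ± 2.0 CPM (-0.87 ± 0.17, edgeR adjusted p = 0.00513). On the list of lower glycolysis genes 1 of 7 tested was called higher and none lower, with a median of 0.075. Bpgm, which makes 2,3-bisphosphoglycerate, rose from 10.9 ± 2.5 to 16.5 ± 0.732 CPM (0.58 ± 0.16, edgeR adjusted p = 0.0290). The call of Bpgm did not hold without 4 h replicate 2 (0.0534) or without 16 h replicate 1, 2 or 3 (0.0648, 0.0835 and 0.108), while without 4 h replicate 3 the list had 2 genes called higher. Gapdh, the most abundant of that list, was at 1191 ± 176 and 974 ± 79.5 CPM (-0.29 ± 0.13, edgeR adjusted p = 0.144), and its change was -0.15 without 4 h replicate 3.

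Enzymes that bypass the one-way steps were called higher in 2 of 5 cases and lower in none, with a median of 0.25. The shares over all tested genes were 9.18% higher and 9.51% lower. Pck1 rose from 3055 ± 528 to 6265 ± 502 CPM (1.04 ± 0.14, edgeR adjusted p = 6.59e-04), and Pcx, pyruvate carboxylase, from 443 ± 38.5 to 769 ± 16.4 CPM (0.80 ± 0.11, edgeR adjusted p = 6.47e-04). Fbp1, which reverses phosphofructokinase, had a change of 0.11 ± 0.11 (edgeR adjusted p = 0.508). The ratio of Pfkl to Fbp1 per kilobase was 0.0135 ± 0.00122 after 4 h and 0.0117 ± 0.00213 after 16 h (exact permutation p = 0.3), a log2 difference of -0.22 that was -0.067 without 16 h replicate 3.

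**Figure D3:**
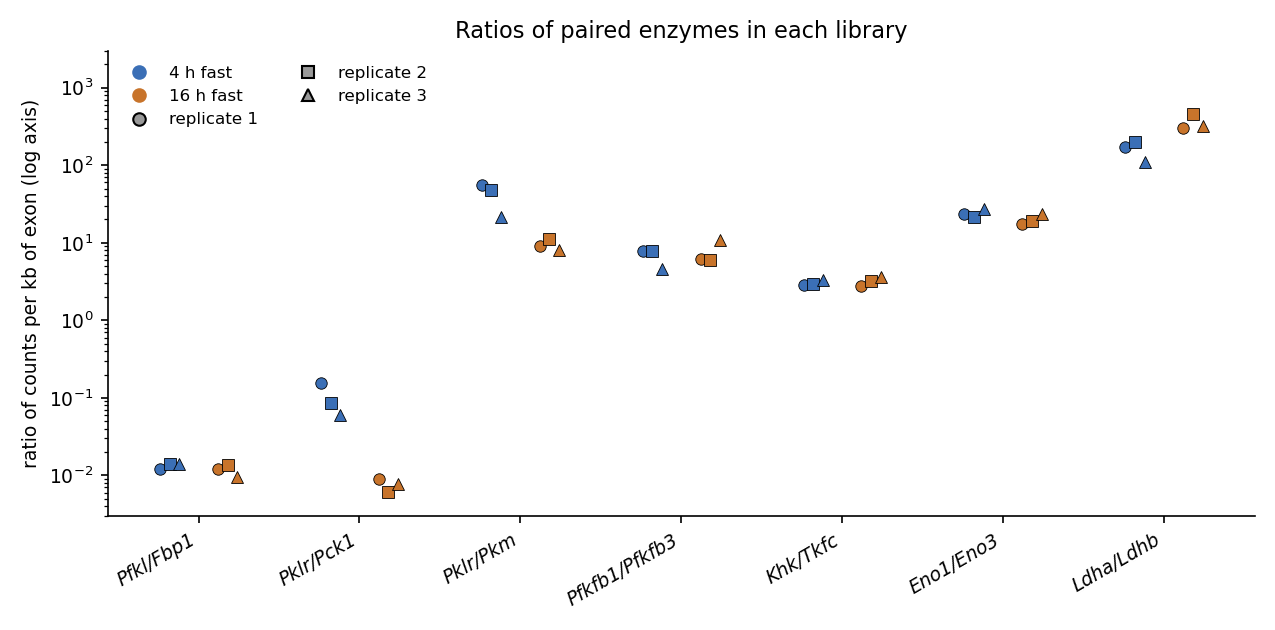
Ratio of counts per kilobase of exon for 7 pairs of enzymes in each library, on a log axis, with colour for the fast and symbols for replicates. The groups are apart for Pklr/Pck1, Pklr/Pkm and Ldha/Ldhb and overlap for Pfkl/Fbp1, Pfkfb1/Pfkfb3, Khk/Tkfc and Eno1/Eno3.

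Of 9 pairs compared 7 are shown, and 3 of these had groups that did not overlap, each at the smallest exact permutation p of 0.1 and at 0.18 after Benjamini-Hochberg adjustment over all 9, so none can pass 0.05 in this design. A ratio within a library does not depend on how libraries are scaled. The ratio of Ldha to Ldhb was 160.2 ± 45.7 after 4 h and 362 ± 80.7 after 16 h, a log2 difference of 1.20. Eno1/Eno3 was at 24.2 ± 2.98 and 20.1 ± 3.01 (exact permutation p = 0.2).

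Genes on the list of carbohydrate-responsive regulators, which also holds target genes such as Arrdc4, moved in both directions. Of 10, 3 were called higher and 2 lower, where 9.18% and 9.51% of all tested genes were. The median of the list was 0.10, and 1 gene was called higher without 16 h replicate 1, 2 or 3. Mlxipl fell from 528 ± 13.7 to 209 ± 10.2 CPM (-1.34 ± 0.10, edgeR adjusted p = 1.88e-05), and Srebf1 from 182 ± 16.5 to 35.6 ± 7.7 CPM (-2.35 ± 0.16, edgeR adjusted p = 8.97e-06). Hnf4a, a nuclear receptor of hepatocytes and the most abundant of the list, rose from 618 ± 25.1 to 1049.9 ± 168 CPM (0.77 ± 0.13, edgeR adjusted p = 0.00239). Arrdc4, a known target of ChREBP, rose by 0.52 ± 0.13 (edgeR adjusted p = 0.0206), but not past the threshold without 4 h replicate 2 (0.0538) or 16 h replicate 1, 2 or 3 (0.0791, 0.0546 and 0.0623). Txnip, on the same list, was not called, with a change of 0.10 ± 0.17 (edgeR adjusted p = 0.713). Mlxip, which encodes a relative of ChREBP, rose by 0.50 ± 0.16 (edgeR adjusted p = 0.0442). It was not called under upper-quartile scaling (0.0656), under plain library totals (0.0640), without 4 h replicate 1 or 3 (0.106 and 0.0619) or without 16 h replicate 1, 2 or 3 (0.0683, 0.176 and 0.0929).

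**Figure D4:**
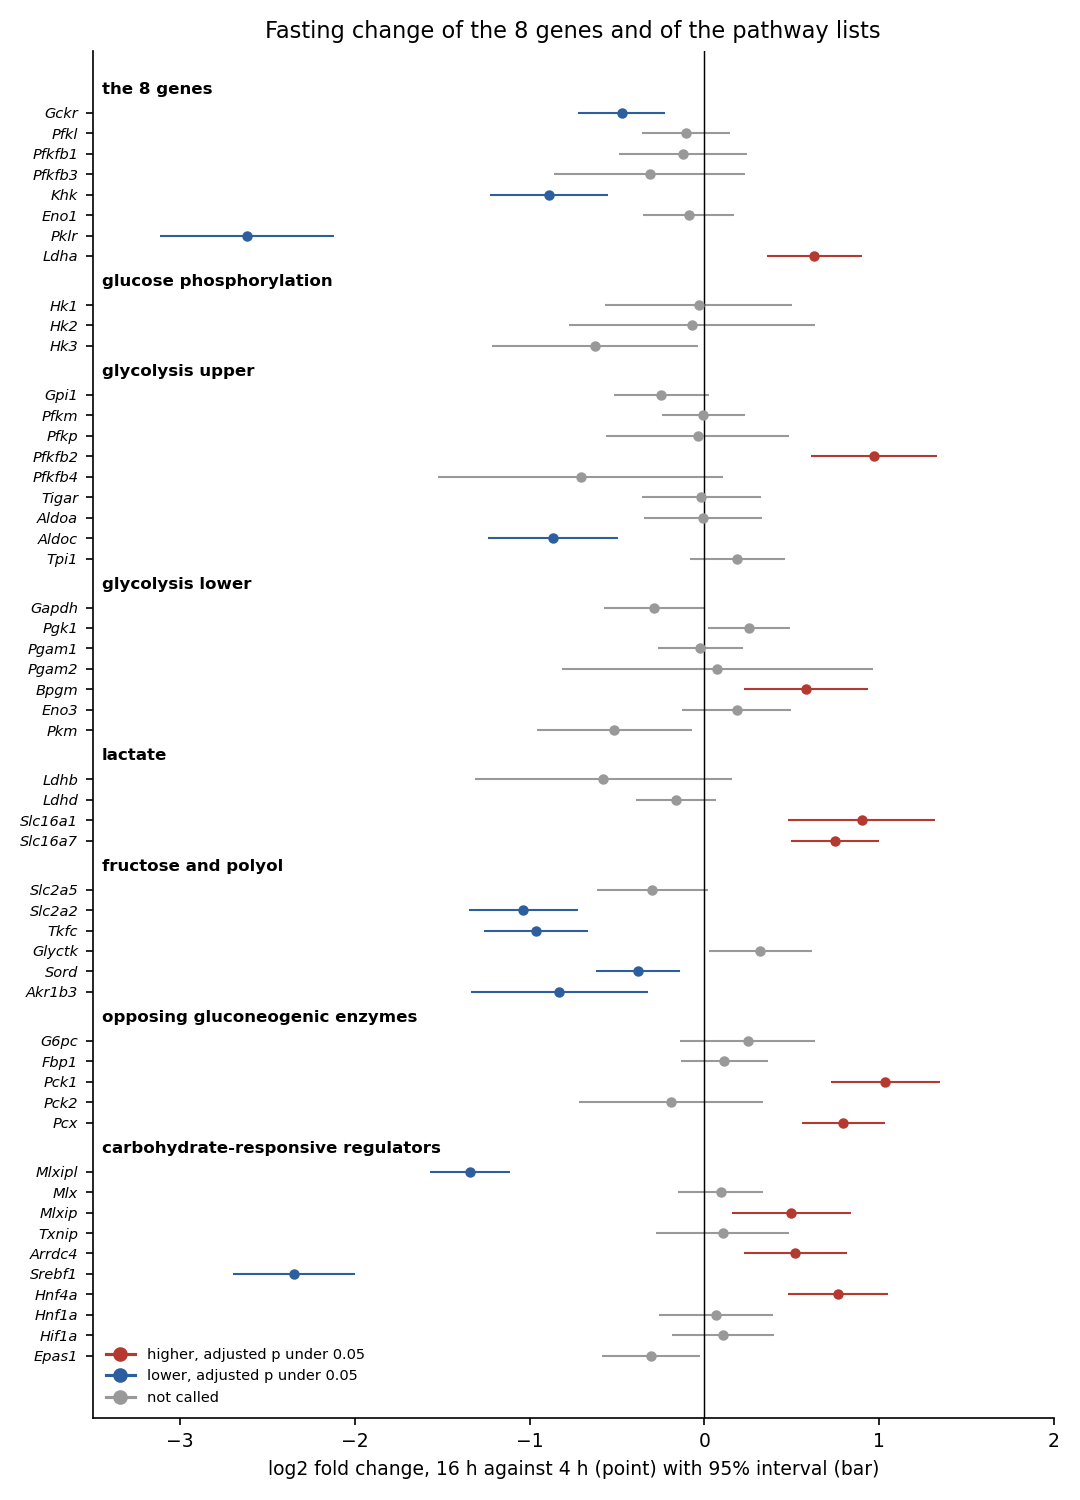
Log2 fold change of 16 h against 4 h with its 95% interval for the 8 genes and for the tested genes shown of 7 pathway lists, coloured by edgeR call. The lowest values shown are those of Pklr (-2.62) and Srebf1 (-2.35), and the highest those of Pck1 (1.04) and Pfkfb2 (0.97).

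Compared per kilobase of the union of exons, the order of the 8 genes changed with the fast. The places of Khk, Ldha and Eno1 depend on the length used. The union of exons and the longest transcript have 5379 and 2027 bases for Eno1, 3310 and 1815 for Ldha and 1797 and 1583 for Khk. After 4 h the levels in CPM per kilobase were 241 ± 42.2 for Khk, 207 ± 16.1 for Ldha, 99.6 ± 11.2 for Eno1, 85.2 ± 27.0 for Pklr, 69.0 ± 6.1 for Gckr, 11.2 ± 0.703 for Pfkfb1, 6.12 ± 0.501 for Pfkl and 1.74 ± 0.478 for Pfkfb3. Mean ± SD overlapped between Khk and Ldha, between Eno1 and Pklr and between Pklr and Gckr. After 16 h the levels in CPM per kilobase were 319.9 ± 39.7 for Ldha, 130.4 ± 19.9 for Khk, 93.6 ± 6.8 for Eno1, 49.7 ± 4.0 for Gckr, 13.9 ± 1.7 for Pklr, 10.3 ± 2.6 for Pfkfb1, 5.70 ± 0.566 for Pfkl and 1.41 ± 0.463 for Pfkfb3. Of these neighbours, Pklr and Pfkfb1 were within their spread of each other.

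Genes with the most similar profile over the 6 libraries were sought among 7448 others with a mean of at least 10 CPM, by the root mean square difference of log2 CPM after centring each gene on its mean. Closest to Pklr were Foxq1 (0.271), Fasn (0.314) and Keg1 (0.325), where the median over all genes compared was 1.35. Foxq1, a forkhead factor gene, had the same order of the 4 h livers as Pklr, with 54.1, 30.9 and 17.4 CPM, against 5.56, 4.88 and 7.29 CPM after 16 h. For Khk the nearest were Tkt (0.112), a transketolase gene, Nab2 (0.126) and Tkfc (0.127), with a median of 0.523. Ldha was most like Chst15 (0.0493), Tspan31 (0.0676) and Aldh3a2 (0.0736), and Gckr most like Ank (0.0504) and Plekha6 (0.0624). Among the genes that were not called, the nearest were Tfe3 (0.0325) for Pfkl, Tbl1xr1 (0.104) for Pfkfb1, Saysd1 (0.108) for Pfkfb3 and Lims2 (0.0166) for Eno1.

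**Figure D5:**
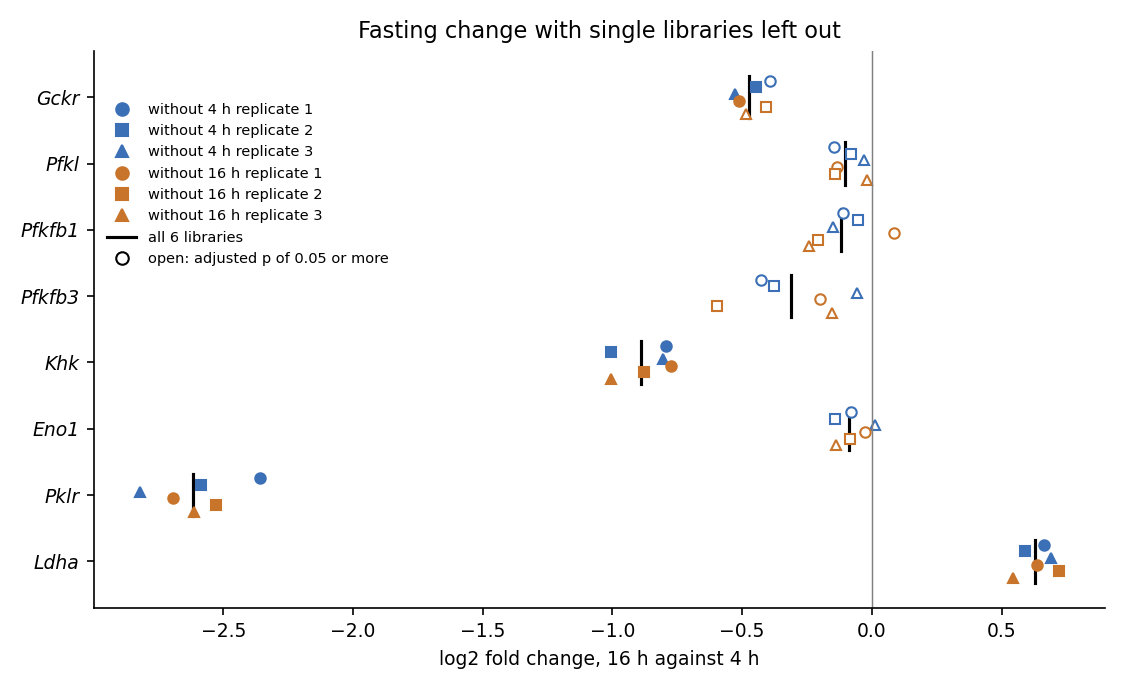
Log2 fold change of 16 h against 4 h for the 8 genes with each of the 6 libraries left out in turn (symbols, open where the edgeR adjusted p is 0.05 or more) and with all 6 (black lines). Pklr, Khk and Ldha keep their side and their call throughout, Gckr is not called in 3 of the 6, and Pfkfb1 and Eno1 cross 0.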

How the data were processed

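The deposited files hold raw counts, 1 table of whole numbers per liver with 1 line per Ensembl gene, not normalised by the authors. Per the submitters' processing notes, the tools were Trimmomatic, FastQC, STAR, HTSeq and DESeq2 and the build GRCm38 (mm10). Tool versions, annotation release and strand setting: not given in the sources used here. Lines that name no gene stayed out of library sizes: reads outside genes were 6.44% to 7.14% of tallied reads and reads hitting several genes 5.78% to 6.59%. No 2 libraries were copies of each other. Depth limits precision, and the limit for a count of 0 is 3 counts and covers counting error only.

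Symbols, positions and exon lengths came from GENCODE M21, which held 55230 of 55471 identifiers, and a symbol with several identifiers took the one with most exon bases. The 13812 genes kept by filterByExpr went into edgeR 4.0.16 (R 4.3.3) with TMM scaling and a robust quasi-likelihood fit on fasting time alone, two-sided, adjusted by Benjamini-Hochberg. The fit was tested on simulated data with fewer changed genes than were called here. There edgeR recovered 79.4% of 107 genes changed by 1 on the log2 scale and 96.7% of 92 changed by 2. Of its 189 calls 15 were false. Pairs of enzymes were compared by exact permutation tests in SciPy 1.17.1. Promoter windows are those of RefSeq on GRCm38.p6, found for all 8 genes, and 4 motifs were searched on both strands. Alternatives were 3 other scalings, 2 other filters, DESeq2 1.42.0, the replicate number as a block, and each library left out.

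Named genes were the 8 members, the called genes and the most abundant gene of each of 7 pathway lists, the genes of the isozyme families and ratios, the nearest profiles per member, at most 3, and the most abundant of a marker list. Hcn3, Eno1b, Slc16a3 and Txnip were named after their values were seen. Some genes that this rule names are not reported here, while counts and medians of lists cover all listed genes. The members and lists were chosen with earlier results of these data known.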

Additional observations from a re-analysis of the deposited data

How the results depend on the processing

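Under the 7 alternatives of scaling, filter, test and block the 8 genes kept 1 call higher and 3 lower. With each library left out in turn, Gckr ran from -0.53 to -0.39, Pfkfb1 from -0.24 to 0.084 and Eno1 from -0.14 to 0.011, and 2 to 3 of the 8 were called lower. Over all genes the calls then ran from 671 to 1594 higher and 696 to 1393 lower, against 1268 and 1313, and the counts moved most without 16 h replicate 1 (818 and 823), 2 (681 and 715) or 3 (671 and 696). In the same runs the lists had 1 to 2 genes called higher (upper glycolysis), 0 to 2 higher (lower glycolysis), 0 to 1 higher and 2 to 4 lower (fructose and polyol) and 1 to 2 higher (regulators). Upper glycolysis had 2 higher under DESeq2's size factors, both other filters and DESeq2's test, and lower glycolysis 1 lower with no filter. The causes were not tested. With single libraries left out, the log2 difference ran from -0.12 to 0.32 for Pfkfb1/Pfkfb3 and from -0.02 to 0.16 for Khk/Tkfc, both across 0.

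Same-numbered libraries correlated at 0.0876, 0.0933 and 0.0455 in their deviations from the group means. Of the 6 libraries 5, all but 16 h replicate 3, correlated best with their own number. With 3 livers per group, correlations this small cannot decide whether the numbers pair the livers. With the replicate block 1352 genes were called higher and 1396 lower, and lower glycolysis had 1 lower, Pkm (edgeR adjusted p = 0.0410). Depth limits Pfkfb3 most among the 8 genes, with 178 to 332 counts per library.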
